A study of Homo sapiens with 96 samples.

Results

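Apoptosis is governed by several genes that make proteins of different, in places opposite, activity from 1 locus by alternative splicing, and 10 of these genes are described here across inhibitor treatments. They are BAX, BCL2L1, MCL1, BCL2L11, and BID of the BCL2 family, CASP2 and CASP9 of the caspases, FAS and CFLAR of the death receptor pathway, and DIABLO. All splicing events whose gene symbol was among these 10 were taken, which gave 167 of the 239131 events and 10 of the 14397 genes in the tables. Events that share the same alternative exon, intron, or splice-site stretch were joined as 1 segment, which left 95 segments. The data come from poly(A) RNA-seq of A549, a standard lung adenocarcinoma cell line of human origin for which the labels give no engineered allele, in 30 libraries that form 10 groups of 3. Cells received 1 µM GSK591, an inhibitor of the arginine methyltransferase PRMT5, or 1 µM MS023, an inhibitor of the Type I arginine methyltransferases, for 2, 4, or 7 days, or 1 µM of each together for 2 or 4 days. Control cells received 0.01% DMSO for 4 or 7 days. The 2-day and 4-day inhibitor groups were both set against the 4-day DMSO libraries, so that durations differ in the 2-day comparisons, and these comparisons share their controls. The 7-day groups were set against 7-day DMSO. Letters a, b, and c give the order of the 3 libraries of 1 group within the tables. Nothing used here says whether they came from separate cultures, so the p-values measure the spread between these libraries, which may be technical. The tables hold no expression levels, and markers of the cell line were therefore not checked.

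Mitochondrial apoptosis turns on the balance within the BCL2 family. BAX is an effector that permeabilises the outer mitochondrial membrane, BCL-xL (from BCL2L1) and MCL1 hold effectors in check, and BIM (from BCL2L11) and BID are BH3-only proteins that set effectors free or activate them. Cytochrome c and DIABLO (also called SMAC, which blocks inhibitor of apoptosis proteins) then leave the mitochondria, and caspase-9 starts the caspase cascade. FAS is a death receptor at the cell surface, CFLAR (c-FLIP) blocks caspase activation at such receptors, and BID links both routes. Alternative splicing yields BCL-xS from BCL2L1, a short MCL1, and a soluble FAS, which are known to act against the main form of each gene. In the same manner caspase-2S and caspase-9b are known as short forms that oppose the full enzymes.

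The level of an event is Ψ, the share of inclusion from 0 to 1, computed per library from reads that include the alternative segment and reads that skip it, each divided by its effective length. Differences in Ψ (ΔΨ) are the tested group minus its reference group. As Ψ is a share averaged over all cells of a library, fewer cells with a form and less of that form per cell cannot be told apart, nor is a change of total gene level seen. The sequences below are shown because the clearest differences lie on them or because they separate the known isoforms. They were read from the GRCh37 genome, and capitals mark the GT and AG at intron ends or, in BID exon 2, the start codon. Sequences lie on the plus strand unless the minus strand is given. BAX intron 2 (chr19:49458857-49458943, plus strand) is shown whole, and the 5′ or 3′ sites carry 10 exon bases.
BAX intron 2: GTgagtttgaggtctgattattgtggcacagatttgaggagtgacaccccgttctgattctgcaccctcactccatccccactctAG
BAX exon 2 (chr19:49458805-49458856): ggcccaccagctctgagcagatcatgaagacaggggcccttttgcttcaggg
BAX exon 3 5′ site (chr19:49459081-49459110): agctgcagagGTgtgggcccctgaggaccc
BAX intron 5 5′ site (chr19:49464162-49464191): gggtggttggGTgagactcctcaagcctcc
BAX intron 5 3′ site (chr19:49464759-49464798): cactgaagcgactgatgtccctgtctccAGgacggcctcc
BCL2L1 xL 5′ site (chr20:30309438-30309467, minus strand): cggcggctggGTaagaaccaagccccttgt
BCL2L1 xS 5′ site (chr20:30309627-30309656, minus strand): ctttgaacagGTagtgaatgaactcttccg
MCL1 exon 2 5′ site (chr1:150550700-150550729, minus strand): aagaggctggGTaagtttgccttaaggatg
BCL2L11 125-base exon (chr2:111911357-111911481): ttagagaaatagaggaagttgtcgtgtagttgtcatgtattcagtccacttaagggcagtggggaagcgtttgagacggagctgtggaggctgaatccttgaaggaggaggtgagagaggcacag
BID exon 2 (chr22:18232871-18232940, minus strand): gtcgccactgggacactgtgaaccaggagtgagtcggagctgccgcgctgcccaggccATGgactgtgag
DIABLO exon 3 (chr12:122702813-122702944, minus strand): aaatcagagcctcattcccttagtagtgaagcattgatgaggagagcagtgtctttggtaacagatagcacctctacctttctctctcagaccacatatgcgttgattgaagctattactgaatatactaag
FAS exon 6 (chr10:90770510-90770572): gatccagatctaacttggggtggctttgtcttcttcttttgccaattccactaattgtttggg

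The consensus 5′ splice site CAGGTAAGT was compared base by base with each site. The sites of BAX exon 3 and BAX intron 5 shared 5 of 9 bases with it, those of BAX intron 2 and of both BCL2L1 forms shared 6, and that of MCL1 exon 2 shared 7. The median was 6 bases over the 4928 retained introns (RI) and 6 over the 94227 skipped exons (SE) of the tables, and 97.4% of SE had at least the 5 matches of BAX exon 3. BAX intron 2, with 87 bases, was longer than 12.1% of RI, whose median length was 260 bases. BAX intron 5, with 617 bases, was longer than 76.2%. Among RI, 91.6% had at least the 5 matches of BAX intron 5. At least 6 matches were found in 66% of RI and 79.6% of SE. These sites of BAX exon 3 and intron 5 thus lie just below the median and are not rare in their number of matches. The matches are a description of the letters alone.

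Across the 95 segments, 38 had a mean Ψ of at least 0.9 in every group, 19 had at most 0.1, and 38 lay between. Reads differed widely between genes. The median number of reads per library ranged from 1094.5 to 6161 for the BAX segments, and was 1862.5 for the BCL2L1 event and 1493 for the MCL1 event, but only from 7 to 97 for BCL2L11 and from 20.5 to 165 for FAS. Small differences could thus be seen in BAX that would not be detectable at the depth of BCL2L11, FAS, or CASP9. Over all events of the series 72359972 to 107061919 reads were counted per library, and 38361 to 85929 on events of the 10 genes, where 1 read can count for several events. An event was tested where each library of a comparison held at least 10 reads and both forms were seen, and was called where the adjusted p was under 0.05. The test was a quasi-binomial model of both counts with a dispersion moderated by limma, and all adjusted p-values below are from it with Benjamini-Hochberg adjustment over every tested event of the 5 types.

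In the 8 comparisons with DMSO, 148 of the 167 events were tested at least once, and 28 of these, on 24 segments, were called in 71 instances. BAX alone held 42 of the 71 calls, on 11 of its 19 tested events. The other 9 genes held 29 calls on 17 of 129 tested events. The share of all events called at least once was not counted, and the 2-day and 4-day comparisons share their controls. These pooled counts therefore describe the members alone, and the background is given per comparison. Of the members' tested events, GSK591 called 10 of 81 at 2 days (2 higher and 8 lower), 15 of 69 at 4 days (5 higher and 10 lower), and 9 of 92 at 7 days (4 higher and 5 lower). The background over all events of the series was 6.95% at 2 days (2.34% higher and 4.61% lower), 11.2% at 4 days (4.49% higher and 6.72% lower), and 8.87% at 7 days (4.13% higher and 4.74% lower). MS023 called 2 of 81 at 2 days (both lower), 3 of 77 at 4 days (1 higher and 2 lower), and 9 of 90 at 7 days (7 higher and 2 lower), against backgrounds of 3.12% (0.963% and 2.15%), 3.7% (1.31% and 2.39%), and 4.71% (1.99% and 2.72%). Both inhibitors together called 12 of 82 at 2 days (3 higher and 9 lower) and 11 of 81 at 4 days (4 higher and 7 lower), with backgrounds of 13.4% (4.1% and 9.26%) and 14.7% (5.71% and 9.02%). The members' shares were 12.35%, 21.74%, and 9.783% with GSK591, 2.469%, 3.896%, and 10% with MS023, and 14.63% and 13.58% with both. Near the background were the shares of co-treatment, of MS023 at 2 and 4 days, and of GSK591 at 7 days. With BAX set aside, 2 of 68 events were called with GSK591 at 2 days, 6 of 57 at 4 days, and 5 of 76 at 7 days. Without BAX no share with GSK591 was above its background. The higher shares at 2 and 4 days therefore rested on BAX, which held 8 of the 10 calls at 2 days and 9 of the 15 at 4 days. With MS023 at 7 days, 6 of the 9 calls were in BAX, and 3 of 77 events were called without it, so that share rested on BAX as well. The median ΔΨ over the members' tested events was 0.00128 with GSK591 at 4 days, against -0.00108 over all events, and the members did not move together in 1 direction.

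**Figure D1:**
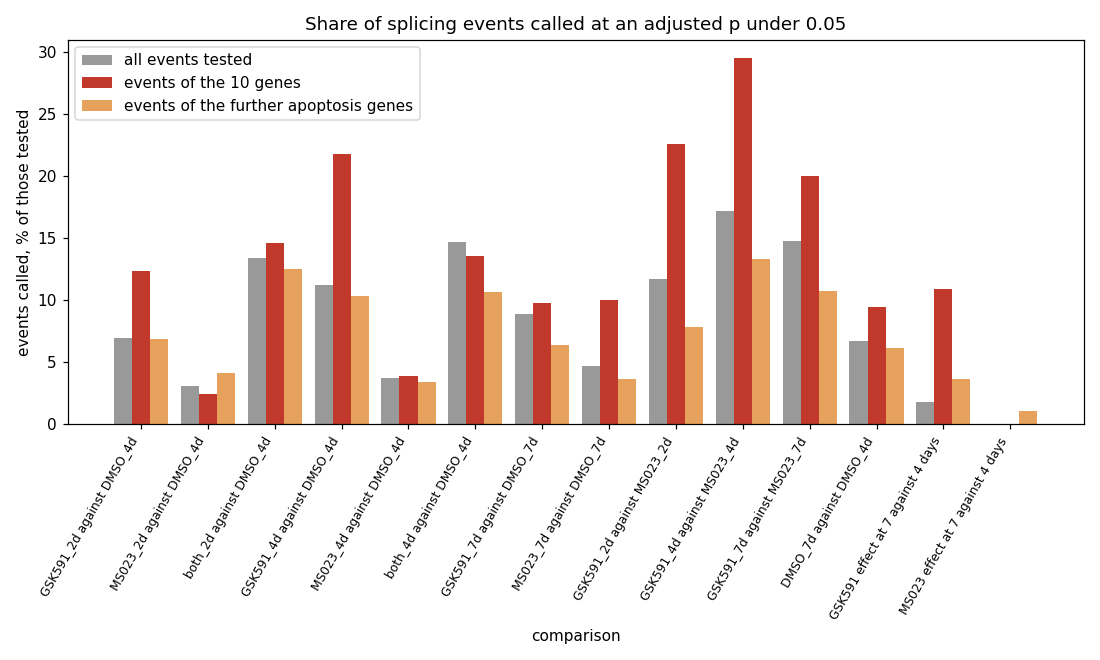
Events called as a percentage of those tested (vertical axis, bars from 0) in each comparison (horizontal axis), for all events (grey), events of the 10 genes (red), and events of further apoptosis genes (orange). Among comparisons with DMSO, the red bar stands above the grey one with GSK591 at 2 and 4 days (12.35% and 21.74%) and with MS023 at 7 days (10%), and close to it with both inhibitors. The higher red bars rest on calls in BAX.

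BAX was the member with the most calls, and among its segments the intron between exons 2 and 3 showed the largest rise. Retention of BAX intron 2 was 0.130, 0.183, and 0.125 in the 4-day DMSO libraries, a mean of 0.146 ± 0.0321 (SD, n = 3). It was 0.222, 0.233, and 0.283 with GSK591 at 2 days, and 0.304, 0.311, and 0.384 at 4 days. Every GSK591 library lay above every DMSO library. With both inhibitors Ψ was 0.237, 0.268, and 0.268 at 2 days and 0.301, 0.300, and 0.334 at 4 days, which is again above every control. The rise in Ψ was 0.101 with GSK591 at 2 days (adjusted p = 0.00217), 0.187 at 4 days (adjusted p = 5.87e-07), 0.112 with both at 2 days (adjusted p = 2.82e-05), and 0.166 with both at 4 days (adjusted p = 3.17e-08). At 7 days Ψ was 0.0973, 0.103, and 0.126 in DMSO and 0.149, 0.172, and 0.196 with GSK591, a rise of 0.0637 (adjusted p = 0.000148). MS023 gave means of 0.112, 0.128, and 0.0905 at 2, 4, and 7 days, and none of these differences passed the test. The retained intron adds 87 bases, a multiple of 3. In the reading frame of BAX-202, where 86 coding bases come before the intron, it brings a stop codon TGA that starts at its base 2, so the retained form does not encode full-length BAX.

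BAX intron 5 (chr19:49464172-49464788), whose retention gives the messenger RNA of BAX-beta, moved the opposite way. Its Ψ was 0.478, 0.533, and 0.462 in 4-day DMSO. With GSK591 it was 0.423, 0.415, and 0.452 at 2 days and 0.340, 0.345, and 0.358 at 4 days, below every control. With both inhibitors at 4 days it was 0.307, 0.310, and 0.339. Intron 5 fell by 0.0608 with GSK591 at 2 days (adjusted p = 0.00929). It fell by 0.143 at 4 days (adjusted p = 3.32e-08), and with both inhibitors it fell by 0.172 (adjusted p = 2.21e-10). The 2-day call was lost without DMSO library b (adjusted p = 0.099) and without GSK591 library b (adjusted p = 0.0539). MS023 at 4 days gave 0.427, 0.426, and 0.404, which fell by 0.0716 (adjusted p = 0.00377), but this call was lost without MS023 library b (adjusted p = 0.0588) or c (adjusted p = 0.115). Co-treatment at 2 days gave 0.461 ± 0.0234 and did not pass the test.

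The DMSO groups differed in this intron as well. In 7-day DMSO libraries its Ψ was 0.265, 0.243, and 0.285, all below every 4-day DMSO library, a fall of 0.226 (adjusted p = 4.28e-10). The size of this fall was above the 0.172 of co-treatment at 4 days, although both were not tested against each other. From that lower level GSK591 at 7 days gave 0.184, 0.199, and 0.195, which fell by 0.0714 (adjusted p = 3.19e-07). MS023 at 7 days gave 0.228, 0.233, and 0.241, a fall of 0.0305 (adjusted p = 0.0136) that was lost in 5 of the 6 fits with a library left out. Those libraries were DMSO a and c and MS023 a, b, and c, with adjusted p between 0.0533 and 0.188. The 7-day and 4-day controls differ in whatever else separated the 2 sets of libraries, and that cannot be told apart from time.

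Skipping of BAX exon 3, which carries the BH3 motif and whose loss gives BAX-delta, rose with GSK591. The exon has 147 bases and its loss keeps the reading frame. Its inclusion was 0.969, 0.972, and 0.961 in 4-day DMSO. It was 0.913, 0.910, and 0.897 with GSK591 at 2 days, 0.898, 0.890, and 0.902 at 4 days, and 0.906, 0.918, and 0.882 with both inhibitors at 2 days, all below every control. Exon 3 fell by 0.0603 (adjusted p = 5.87e-09), fell by 0.0702 (adjusted p = 3.7e-12), and fell by 0.0651 (adjusted p = 7.79e-10) in these groups. Both inhibitors at 4 days gave a mean of 0.933 ± 0.00781, a fall of 0.0337 (adjusted p = 1.3e-05). In MS023 libraries of 2 and 4 days the means were 0.969 and 0.963 and did not pass the test. After 7 days the means were 0.965 in DMSO, 0.954 with GSK591, and 0.977 with MS023. Both 7-day differences were called (adjusted p = 0.0428 and 0.0134), in opposite directions. The GSK591 call was lost without any DMSO library or GSK591 library b or c (adjusted p from 0.134 to 0.243), and the MS023 call without any of the 6 libraries (adjusted p from 0.0533 to 0.134).

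**Figure D2:**
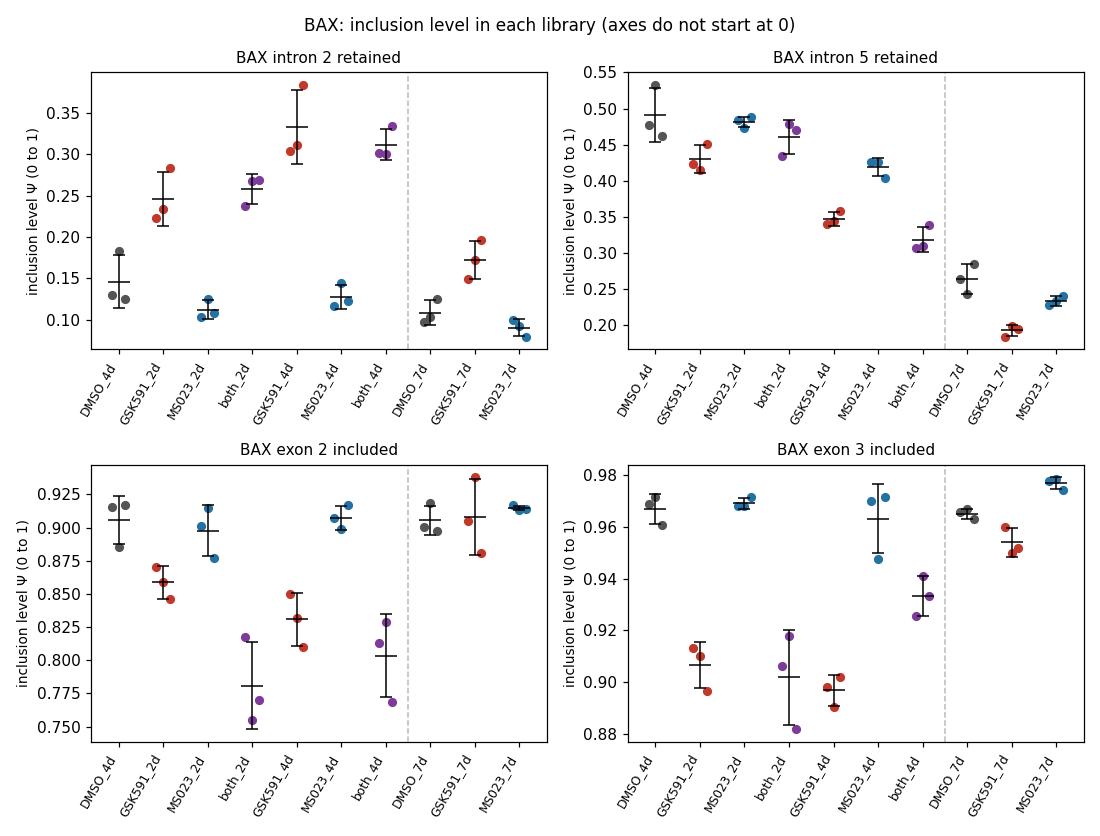
Inclusion level Ψ of BAX segments (vertical axes, share from 0 to 1, not starting at 0 in each panel) in every library, grouped by treatment and day on the horizontal axis, with points for libraries and bars for mean ± SD (n = 3). Retention of intron 2 is above its DMSO group in all GSK591 and co-treated libraries, while intron 5 is lower at 7 days in DMSO than at 4 days.

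BAX exon 2, of 52 bases, was included at 0.916, 0.885, and 0.917 in 4-day DMSO libraries, in reads that join it to exons 1 and 3. Skipping it shifts the reading frame. With GSK591 at 4 days Ψ was 0.850, 0.832, and 0.810, and with both inhibitors it was 0.818, 0.755, and 0.770 at 2 days and 0.813, 0.829, and 0.769 at 4 days. Exon 2 thus fell by 0.0752 (adjusted p = 2.56e-05), 0.125 (adjusted p = 2.07e-08), and 0.103 (adjusted p = 5.87e-07). GSK591 at 2 days gave 0.859 ± 0.0122, at which exon 2 fell by 0.0474 (adjusted p = 0.0154). This smaller fall was lost without DMSO library a (adjusted p = 0.134) or c (adjusted p = 0.139) or without GSK591 library b (adjusted p = 0.0846) or c (adjusted p = 0.0899). At 7 days the means were 0.905 in DMSO, 0.908 with GSK591, and 0.915 with MS023. Against another skipped form, in which exon 1 joins exon 4, exon 2 reached 0.692, 0.793, and 0.812 with MS023 at 4 days and 0.591, 0.671, and 0.578 in DMSO, a rise of 0.152 (adjusted p = 0.0238). At 7 days the MS023 mean was 0.721 and the DMSO mean 0.588 (adjusted p = 0.00141). In this form exon 2 was not lower with GSK591 at 2 days (0.653 and 0.613 in DMSO, adjusted p = 0.636) or with co-treatment at 2 days (0.617, adjusted p = 0.945) or 4 days (0.673, adjusted p = 0.274). With GSK591 at 4 days it was 0.602 (adjusted p = 0.895). This form was described after its values were seen. Both calls were lost without 4 of the 6 libraries, which were DMSO a or c with MS023 b or c at 4 days (adjusted p from 0.134 to 0.27) and DMSO a or c with MS023 a or c at 7 days (adjusted p from 0.0525 to 0.15).

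Events that span several BAX exons share reads with those above and are no separate evidence. The 234-base stretch and the 286-base block below hold intron 2, yet reads within their exons count as inclusion. Their Ψ therefore does not measure how often intron 2 is kept. The stretch of 234 bases between the usual end of exon 2 and the end of exon 3 had a Ψ of 0.946 ± 0.0104 in 4-day DMSO and 0.864, 0.858, 0.861, and 0.907 with GSK591 at 2 days, both at 2 days, GSK591 at 4 days, and both at 4 days, and all 4 differences were called. The block of 286 bases from exon 2 to exon 3 with intron 2 fell from 0.947 to 0.904, 0.886, and 0.874 in the first 3 of these groups. The first of these falls was lost without DMSO library b (adjusted p = 0.0855) or GSK591 library a (adjusted p = 0.104). With MS023 at 7 days this block was 0.967, 0.957, and 0.968, above the 0.930, 0.935, and 0.933 of DMSO, a rise of 0.0314 (adjusted p = 8.41e-06) that was kept with each library left out. Exon 3 read against the same joining of exon 1 to exon 4, an event chosen after its values were seen, was 0.977, 0.969, and 0.977 with MS023 at 7 days and 0.950, 0.953, and 0.951 in DMSO, a rise of 0.0231 (adjusted p = 6.44e-06) that was also kept. The 234-base stretch was 0.959 with MS023 and 0.940 in DMSO at 7 days (adjusted p = 0.0479), which was lost in all 6 fits with a library left out (adjusted p from 0.0893 to 0.197). An exon of 98 bases between exons 4 and 5 was used rarely. Its Ψ was 0.0154, 0.0134, and 0.0146 in 4-day DMSO and 0.0029, 0.00415, and 0.00358 with GSK591 at 4 days (adjusted p = 3.9e-08), and 0.00513, 0.00506, and 0.00533 in 7-day DMSO, where GSK591 gave 0.00474 and passed no test.

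In 6 BAX events the effect of GSK591 differed between 7 and 4 days. An interaction term in the same model called 6 of 55 member events, all in BAX, with falls at 4 days that were smaller or absent at 7 days, against a background of 1.77% of all events. The term compares effects in log odds, so its p-values do not refer to the difference between ΔΨ values. In exon 3, ΔΨ was -0.0702 at 4 days and -0.0112 at 7 days (adjusted p = 0.000234 for the interaction). For intron 2 the ΔΨ values were 0.187 and 0.0637, and the interaction did not pass (adjusted p = 0.0929). The interaction for intron 5 did not pass either (adjusted p = 0.244). For MS023 the same term called 0 of 59 member events, with a background of 0.0678%, and limma on the log odds called 0. An unadjusted p under 0.05 was found for 8 of the 59, but the share of all events at that threshold was not counted. The 2-day and 4-day effects share their DMSO libraries and were not compared in this way.

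BCL2L1 chooses between a 5′ splice site that yields BCL-xL and one 189 bases upstream (the stretch between them is chr20:30309458-30309646) that yields the shorter BCL-xS, which lacks part of the domain that binds BH3-only proteins. A549 libraries used the long site in most reads. Its Ψ was 0.965, 0.963, and 0.951 in 7-day DMSO, and 0.909, 0.916, and 0.911 with GSK591 at 7 days. All GSK591 libraries were lower, by 0.0476 in the means (adjusted p = 1.75e-05), and this was kept with each library left out. At 4 days the DMSO libraries had 0.965, 0.975, and 0.954 and the GSK591 libraries 0.941, 0.922, and 0.935, a fall of 0.0324 (adjusted p = 0.00471). The 4-day call was lost without library b of DMSO (adjusted p = 0.0628) or of GSK591 (adjusted p = 0.0539). Both inhibitors at 4 days gave 0.943 ± 0.00395, a fall of 0.0223 (adjusted p = 0.0297), which was lost in 5 of 6 fits with 1 library left out, all but that without DMSO library c, with adjusted p from 0.0603 to 0.187. MS023 means were 0.967, 0.954, and 0.964 at 2, 4, and 7 days and did not pass the test. GSK591 and co-treatment at 2 days gave 0.957 and 0.950, which did not pass either (adjusted p = 0.535 and 0.221). BCL-xL stayed above 0.9 of the total in every library.

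MCL1 exon 2 (chr1:150550720-150550967, 248 bases) is absent from MCL1S, a short form that loses the membrane anchor of the full protein and is known to promote cell death. Inclusion was 0.969, 0.971, and 0.982 in 4-day DMSO. With GSK591 at 4 days it was 0.945, 0.948, and 0.913, below every control, a fall of 0.0392 (adjusted p = 0.000659). The call was lost without GSK591 library c (adjusted p = 0.0613). With GSK591 at 2 days the libraries had 0.962, 0.956, and 0.943 and at 7 days 0.964, 0.971, and 0.970, neither of which passed the test. Co-treatment gave 0.978 and 0.987 at 2 and 4 days, with no call.

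**Figure D3:**
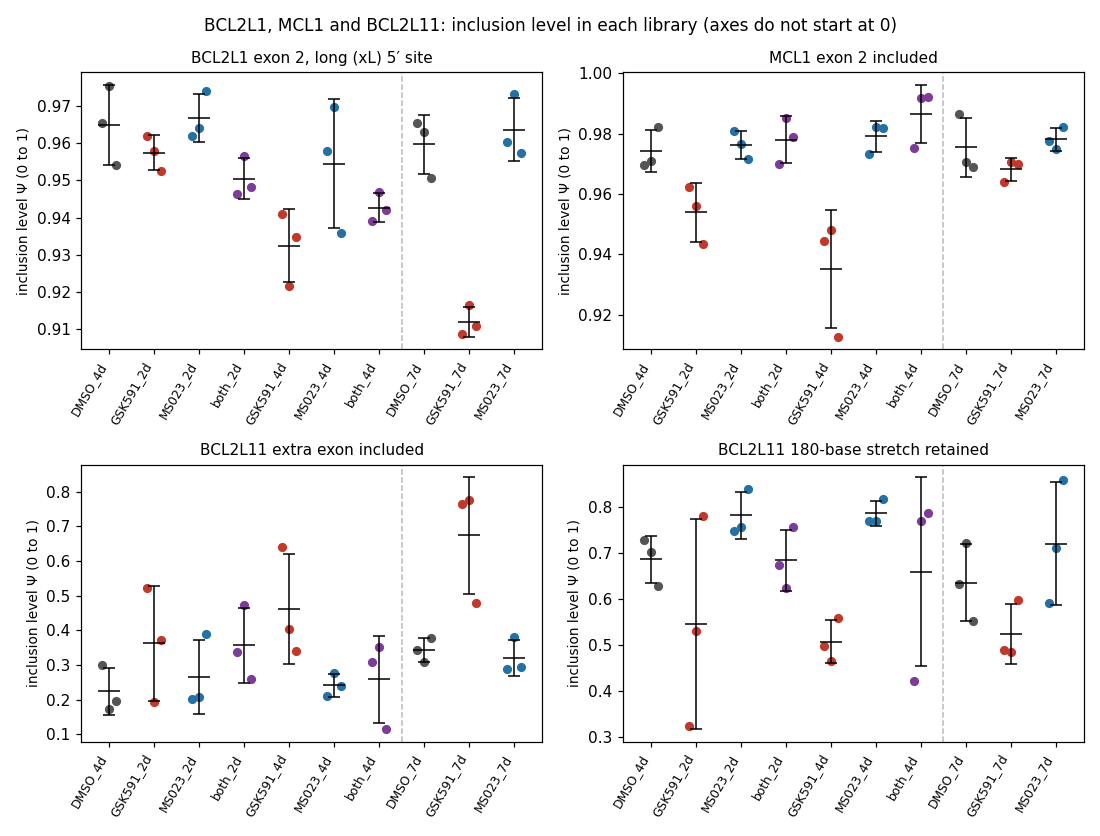
Inclusion level Ψ (vertical axes, share from 0 to 1, not starting at 0) of the BCL2L1 long site, MCL1 exon 2, and 2 segments of BCL2L11 in every library, by treatment and day, with points for libraries and bars for mean ± SD (n = 3). The BCL2L1 long site is lowest with GSK591 at 7 days, and the BCL2L11 libraries spread widely at their low read numbers.

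BCL2L11 makes BIM-EL, BIM-L, and BIM-S, which differ in exon 2 and the dynein-binding stretch beside it, and further transcripts that end in or include other exons. An exon of 125 bases after exon 3, found in transcripts other than the main one, was included at 0.344, 0.310, and 0.378 in 7-day DMSO and at 0.765, 0.777, and 0.480 with GSK591 at 7 days. Its mean rose by 0.331 (adjusted p = 0.00153), which is the largest called difference from DMSO among all members, but GSK591 libraries held only 14 to 37 reads. The call was lost without DMSO library a (adjusted p = 0.0706) or b (adjusted p = 0.0808) or GSK591 library a (adjusted p = 0.0543) or b (adjusted p = 0.21). At 4 days it was 0.300, 0.173, and 0.197 in DMSO and 0.641, 0.405, and 0.341 with GSK591, a rise of 0.239 (adjusted p = 0.0407) that was lost in 5 of 6 fits, all but that without DMSO library a (adjusted p from 0.073 to 0.231). With 2 days of GSK591 the libraries had 0.521, 0.192, and 0.373 and overlapped DMSO. The 180-base stretch that marks BIM-EL (chr2:111881447-111881626) was retained at 0.728, 0.703, and 0.629 in DMSO and 0.498, 0.466, and 0.558 with GSK591 at 4 days, which was not called. With co-treatment at 2 days another event of the long end of exon 2 was 0.762 against 0.971 in DMSO (adjusted p = 0.0414), but the event of the same stretch with most reads was 0.710 against 0.879 and did not pass (adjusted p = 0.0741). The called event was quoted with its value known and was not refitted with a library left out. Exon 3 lay between 0.801 and 0.913 in all groups with no call.

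BID exon 2 (70 bases) holds the start codon of the main transcript. It was included at 0.953, 0.965, and 0.973 in 4-day DMSO when read against a form that joins exon 1 to exon 3, and at 0.994, 0.971, and 1.000 with GSK591 at 4 days. These groups overlapped, and the rise of 0.0250 (adjusted p = 0.0362) was lost in 5 of 6 fits, all but that without GSK591 library b (adjusted p from 0.0933 to 0.302). Against a form that joins exon 1 to exon 4, which was chosen after its values were seen, exon 2 was 0.789, 0.770, and 0.687 in DMSO. With MS023 it was 0.488, 0.587, and 0.564 at 2 days and 0.597, 0.465, and 0.581 at 4 days, in each case below every DMSO library. Exon 2 fell by 0.203 (adjusted p = 0.00204) and by 0.201 (adjusted p = 0.00701) in this form. The 2-day call was lost without DMSO library b (adjusted p = 0.0552) or MS023 library a (adjusted p = 0.193) or c (adjusted p = 0.0925), and the 4-day call in every fit but that without DMSO library c (adjusted p from 0.0672 to 0.18). At 7 days the MS023 mean was 0.734 and the DMSO mean was 0.712, with no call. Co-treatment at 2 days gave 0.508, 0.583, and 0.689, overlapping DMSO (adjusted p = 0.0371), and was lost in every fit but that without DMSO library c (adjusted p from 0.058 to 0.288).

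BID exon 3 read against the same form, also chosen after its values were seen, was 0.956, 0.933, and 0.916 in 4-day DMSO and 0.859, 0.850, and 0.891 in 7-day DMSO, a fall of 0.0685 (adjusted p = 0.000715). This event shares the reads that join exon 1 to exon 4 with the exon 2 event above, so they are no separate evidence. MS023 at 2 days gave 0.885 ± 0.0357, lower than DMSO by 0.0498 (adjusted p = 0.0323), and GSK591 at 7 days gave 0.917 ± 0.0247, higher than DMSO by 0.0505 (adjusted p = 0.0171). Both overlapped their controls, and each was kept in 1 of 6 fits. The MS023 call was lost without DMSO a or b or MS023 a, b, or c (adjusted p from 0.0979 to 0.476), and the GSK591 call without any DMSO library or GSK591 b or c (adjusted p from 0.0685 to 0.258). In the form that joins exon 2 to exon 4, exon 3 was above 0.97 in all libraries and was not called. A stretch of 688 bases before exon 4 was used at 0.0101 in DMSO and 0.0201 with co-treatment at 2 days (adjusted p = 0.0234), which was lost without DMSO library a or b or co-treated library a or c (adjusted p from 0.0685 to 0.255).

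DIABLO exon 3, of 132 bases, stood at 0.910, 0.921, and 0.904 in 4-day DMSO. It was 0.947, 0.936, and 0.967 with GSK591 at 2 days, 0.922, 0.954, and 0.962 at 4 days, and 0.937, 0.950, and 0.957 with co-treatment at 4 days. No library of these groups lay below the highest control. Exon 3 rose by 0.0383 (adjusted p = 0.0111), 0.0342 (adjusted p = 0.0247), and 0.0364 (adjusted p = 0.00709). At 7 days it was 0.885, 0.887, and 0.912 in DMSO and 0.941, 0.919, and 0.944 with GSK591, a rise of 0.0405 (adjusted p = 0.0205). Read after another upstream exon, exon 3 was 0.991 in DMSO and 0.975 with GSK591 at 7 days, the opposite direction with no call (adjusted p = 0.213). In a further event of this exon ΔΨ was -0.000989 with co-treatment at 4 days (adjusted p = 0.528). MS023 means were 0.910, 0.926, and 0.902 and were not called. None of the 4 calls was kept with every library left out. The 2-day call was lost without DMSO a or c or GSK591 a or c (adjusted p from 0.065 to 0.117), the 4-day call without any DMSO library or GSK591 b or c (0.0697 to 0.254), the 7-day call without any DMSO library or GSK591 a or c (0.0506 to 0.202), and the co-treatment call without DMSO c or co-treated b or c (0.0592 to 0.0699). Exons 2 and 3 were also listed as alternatives, where Ψ sets reads of exon 2 against reads of exon 3. Both exons belong to the main transcript and reads within each are counted. This level therefore does not measure transcripts that carry only 1 of them. It was 0.468, 0.476, and 0.452 in 7-day DMSO and 0.356, 0.445, and 0.370 with GSK591 (adjusted p = 0.0435). The call was lost in every fit but that without GSK591 library b (adjusted p from 0.0832 to 0.231).

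A DIABLO exon of 162 bases between exons 5 and 6 behaved differently. Its Ψ was 0.0144, 0.00888, and 0.0163 in 7-day DMSO and 0.0244, 0.0280, and 0.0292 with MS023 at 7 days, all above DMSO (adjusted p = 5.27e-05), and this was kept with each library left out. With co-treatment at 4 days it was 0.0563, 0.0518, and 0.0444, and 0.0253, 0.0211, and 0.0369 in DMSO (adjusted p = 0.000231). The last call was lost without co-treated library a (adjusted p = 0.0518). At 2 days co-treatment gave 0.0409 ± 0.00541, overlapping DMSO (adjusted p = 0.0383), and was kept only without DMSO library c (adjusted p from 0.115 to 0.281 in the other fits). The exon remained a minor form, at no more than 0.0563 in any library.

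**Figure D4:**
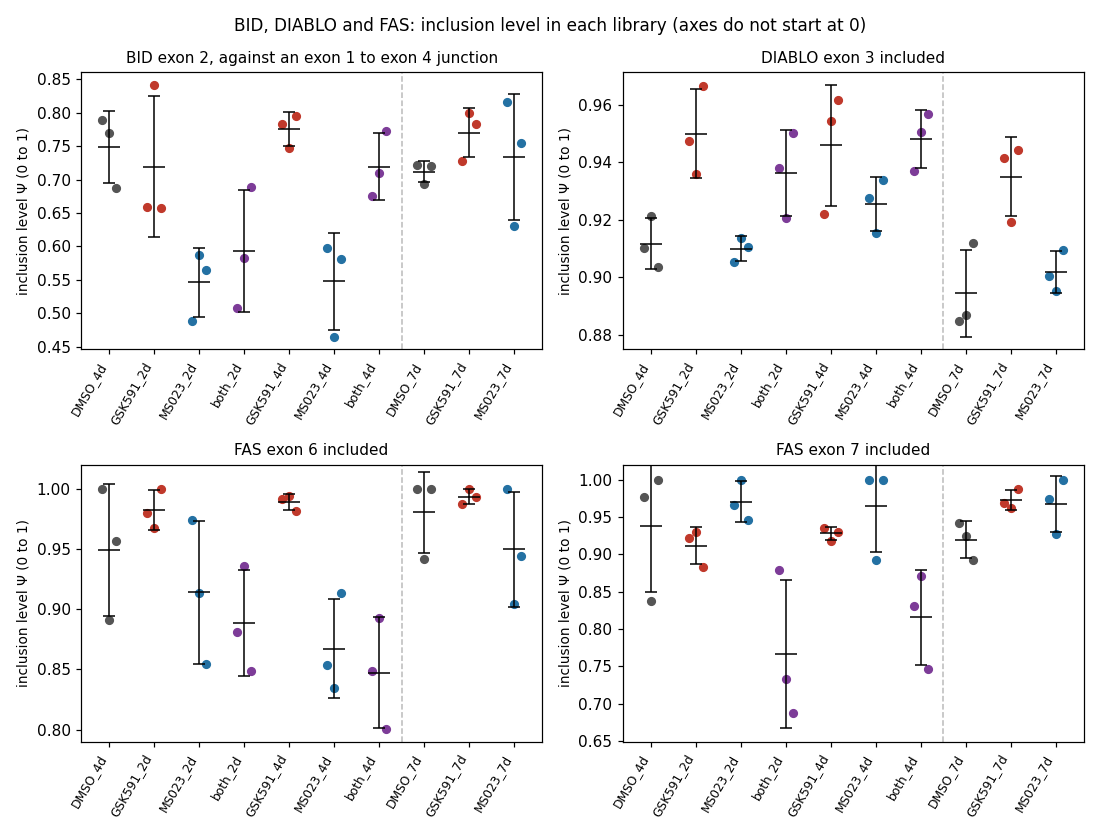
Inclusion level Ψ (vertical axes, share from 0 to 1, not starting at 0) of BID exon 2 against the exon 1 to exon 4 junction, DIABLO exon 3, and FAS exons 6 and 7 in every library, by treatment and day, with points for libraries and bars for mean ± SD (n = 3). BID exon 2 is lowest with MS023 at 2 and 4 days, and DIABLO exon 3 is higher with GSK591.

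FAS exon 6 (63 bases) encodes the transmembrane segment, so that its skipping yields soluble FAS. No comparison with DMSO was called. Ψ was 1.000, 0.891, and 0.957 in 4-day DMSO on 65 to 76 reads, 0.992, 0.994, and 0.982 with GSK591 at 4 days on 171 to 309 reads, and 0.853, 0.834, and 0.913 with MS023 at 4 days on 48 to 65 reads. More reads were thus counted on the exon with GSK591 at 4 days, as raw counts not scaled to depth. GSK591 libraries of 7 days held 356 to 439 reads, which are not set against the 4-day libraries. FAS exon 7 (83 bases) was 0.878, 0.733, and 0.688 with co-treatment at 2 days and 0.977, 0.837, and 1.000 in DMSO, overlapping groups with a fall of 0.171 (adjusted p = 0.0446). The fall was lost in every fit but that without DMSO library b (adjusted p from 0.0888 to 0.356). An event of the same exon between exons 5 and 8, chosen after its values were seen, was 1.000 in all DMSO libraries and 0.844, 0.934, and 0.919 with co-treatment at 4 days (adjusted p = 0.049), and was lost in all 6 fits (adjusted p from 0.057 to 0.182).

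The caspases and CFLAR showed few calls. The 61-base exon of CASP2 whose inclusion yields caspase-2S had group means between 0.0419 and 0.0922 and was called in no comparison. CASP2 exon 10 was 0.992, 0.990, and 0.978 in 4-day DMSO and 0.923, 0.958, and 0.897 with GSK591 at 2 days (adjusted p = 0.0203), which was lost without DMSO a or b or GSK591 a or c (adjusted p from 0.0732 to 0.217). With MS023 at 7 days it was 1.000, 0.944, and 0.985 and 1.000 in all DMSO libraries (adjusted p = 0.0324), which was lost in all 6 fits (adjusted p from 0.0585 to 0.449). CASP9 exons 3, 5, and 7, which lie in the part that caspase-9b lacks or borders, had group means of at least 0.939. These events read the skipping of 1 exon between its neighbours and do not measure the share of caspase-9b. Exon 5 was 0.965, 0.862, and 0.989 with GSK591 at 4 days and 1.000 in all DMSO libraries (adjusted p = 0.0326), lost in 5 of 6 fits, all but that without GSK591 library c (adjusted p from 0.121 to 0.265). An event that reads exon 4 against a junction of exon 2 with exon 7, the junction of caspase-9b, had means from 0.157 to 0.470 on 4 to 37 reads. It was listed in 4 of the 8 comparisons with DMSO and not tested where a library held under 10 reads. Where it was tested it was not called. It too was chosen after its values were seen. CFLAR exon 2 was 0.976, 0.972, and 0.966 in 7-day DMSO and 1.000, 0.992, and 0.990 with MS023 (adjusted p = 0.0368), lost in all 6 fits (adjusted p from 0.112 to 0.286). The short form of c-FLIP ends in a terminal exon, a kind of event that none of the 5 types covers, so its share was not analysed here.

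**Figure D5:**
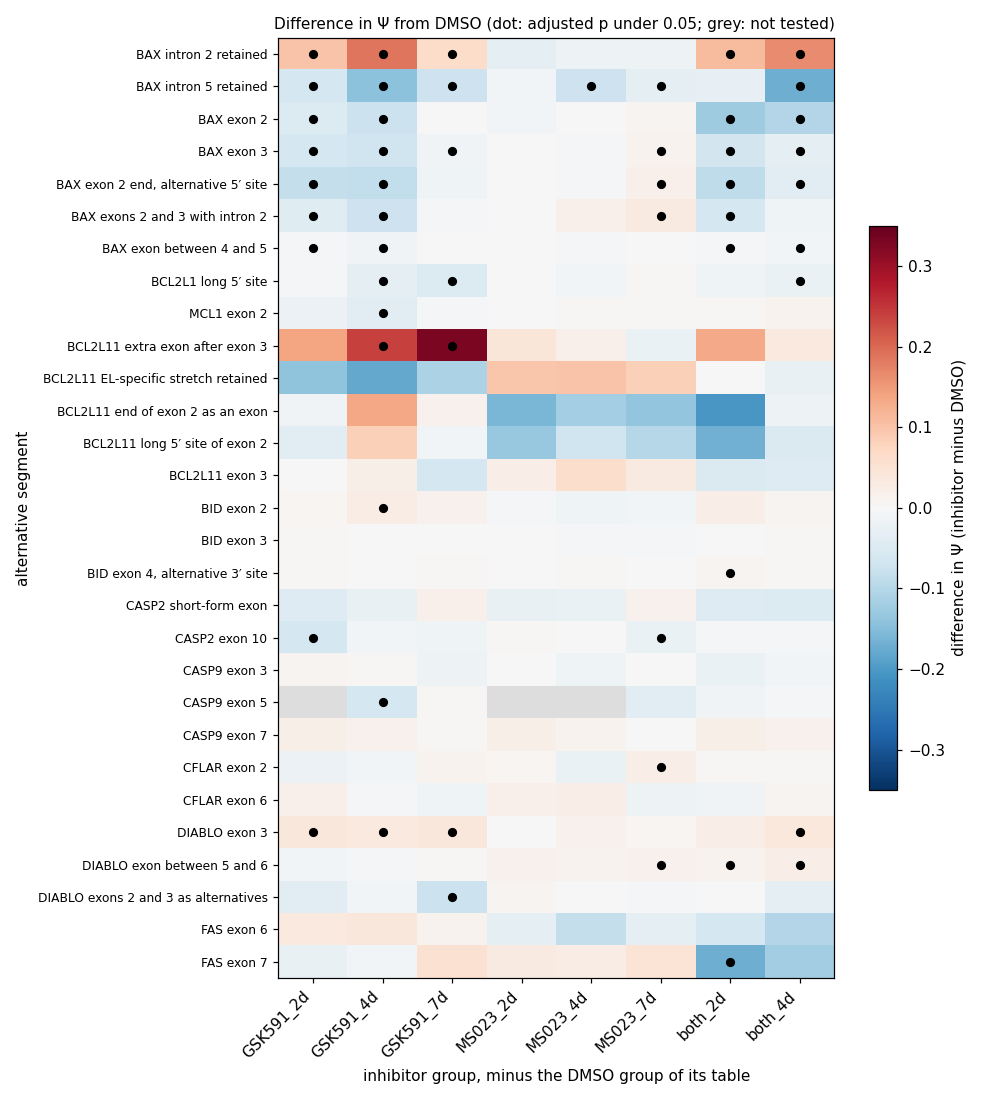
Differences in Ψ (color, red above and blue below 0, inhibitor minus DMSO) of the described segments (rows) in the 8 comparisons with DMSO (columns), with a dot where an event was called and grey where it was not tested. Calls crowd in the BAX rows under GSK591 and co-treatment, and intron 2 and intron 5 of BAX have opposite signs there.

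The inhibitors were compared directly at each time, with no DMSO library in the test. GSK591 against MS023 called 14 of 62 member events at 2 days (4 higher and 10 lower with GSK591), 18 of 61 at 4 days (7 higher and 11 lower), and 12 of 60 at 7 days (3 higher and 9 lower). Over all events the background was 11.7%, 17.2%, and 14.8%. BAX gave 8, 9, and 8 of these calls. Intron 2 of BAX was higher with GSK591 by 0.134 (adjusted p = 1.44e-06), 0.205 (adjusted p = 1.68e-12), and 0.0818 (adjusted p = 4.85e-12) at 2, 4, and 7 days. BAX exon 3 was lower with GSK591 on each day, with ΔΨ of -0.0624, -0.0663, and -0.0228 (adjusted p of 1.49e-13, 6.36e-15, and 8.12e-09).

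In the other genes, 6 of 51, 9 of 49, and 4 of 48 events were called at 2, 4, and 7 days, most of them on some days only. These shares were near the backgrounds of 11.7% and 17.2% at 2 and 4 days and below the 14.8% at 7 days. The calls that follow are thus descriptions of single events, and the higher shares of all members rested on BAX. BCL2L1 at 7 days was lower with GSK591 by 0.0515 in its long form (adjusted p = 1.25e-07), but was not called at 2 days (adjusted p = 0.479) or 4 days (adjusted p = 0.0612). MCL1 exon 2 was lower with GSK591 at 4 days by 0.0440 (adjusted p = 3.15e-05), with no call at 2 days (adjusted p = 0.0574) or 7 days (adjusted p = 0.356). FAS exon 6 at 4 days was higher with GSK591 by 0.122 (adjusted p = 0.00054), and no GSK591 library overlapped an MS023 library. At 2 and 7 days the groups overlapped and were not called (adjusted p = 0.0788 and 0.0516). The BIM-EL stretch at 4 days was 0.507 with GSK591 and 0.787 with MS023 (adjusted p = 0.00735), while the 90-base end of BCL2L11 exon 2 was 0.955 and 0.701 (adjusted p = 0.00623). Neither was called at 2 or 7 days, with adjusted p between 0.228 and 0.442. The 125-base BCL2L11 exon was higher with GSK591 at 4 days by 0.220 (adjusted p = 0.0359) and at 7 days by 0.353 (adjusted p = 0.00262), but not called at 2 days (adjusted p = 0.574). BID exon 2 was higher with GSK591 at 4 and 7 days by 0.0394 (adjusted p = 0.00124) and 0.0253 (adjusted p = 0.0104), with no call at 2 days (adjusted p = 0.436). The DIABLO exon of 162 bases was lower with GSK591 by 0.0239, 0.0148, and 0.0109 at 2, 4, and 7 days (adjusted p of 5.85e-06, 0.0198, and 0.00614).

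Other levels differed between the DMSO groups. In 7-day against 4-day DMSO, 7 of 74 member events were called (2 higher and 5 lower), against a background of 6.71%. Apart from BAX intron 5, the BAX exon of 98 bases, and BID exon 3, a CASP2 intron fell from 0.0549 to 0.0192 (adjusted p = 0.00106). The DIABLO exon of 162 bases fell from 0.0278 to 0.0132 (adjusted p = 0.000483). The level of DIABLO exon 2 reads against exon 3 reads rose from 0.380 to 0.465 (adjusted p = 0.0164). The remaining call was a higher level of another BID event. Levels at 7 days were therefore read only against 7-day DMSO.

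A list of other apoptosis genes, among them BAK1, BAD, PMAIP1, CASP8, TNFRSF10B, APAF1, XIAP, BIRC5, and HTRA2, was counted in the same comparisons. Of its tested events, GSK591 called 26 of 379 at 2 days (10 higher and 16 lower), 38 of 366 at 4 days (12 higher and 26 lower), and 22 of 346 at 7 days (18 higher and 4 lower). MS023 called 16 of 385 (4 higher and 12 lower), 13 of 380 (3 higher and 10 lower), and 12 of 330 (6 higher and 6 lower). Both inhibitors called 48 of 384 at 2 days (11 higher and 37 lower) and 43 of 403 at 4 days (16 higher and 27 lower). These were shares of 6.86%, 10.38%, and 6.358% with GSK591, 4.156%, 3.421%, and 3.636% with MS023, and 12.5% and 10.67% with both, near or below the background of each comparison with DMSO, except for 4.156% against 3.12% with MS023 at 2 days.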

How the data were processed

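The analysis covers 30 poly(A) RNA-seq libraries of A549 cells, which the sample labels place in 10 groups. The other 66 samples of the series were not analysed here. The authors trimmed reads with Trim Galore 0.6.5, aligned them with STAR 2.4.2a to hg19, and counted events with rMATS, 1 inhibitor group and DMSO at a time. The 8 deposited tables hold 5 event types, SE, mutually exclusive exons, alternative 3′ and 5′ splice sites, and RI. The tables give whole-number counts of inclusion and skipping reads per library, deposited without normalization, in which inclusion also takes in reads within the alternative segment. A segment with many such reads therefore weighs more than a junction alone. The columns with the p-values, FDR, and Ψ differences of the authors' own comparisons were not used, and 0 columns of per-sample values were left out. The control of the 7-day tables was inferred to be 7-day DMSO. DMSO counts of 1741481 events were compared between tables with the same control, and 0 differed. The deposited Ψ differed from the recomputed Ψ by at most 0.0005.

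Counts of both forms were fitted per event with a quasi-binomial logistic model in R 4.3.3. The dispersion was moderated within the event type by squeezeVar of limma 3.58.1 with 1 as its lowest value. An F test gave the p-value, which was adjusted over all tested events by the Benjamini-Hochberg method. The minimum was 10 reads in every library. Interaction terms tested effects, in log odds, at 7 against 4 days. Alternatives were limma on the log2 odds with 0.5 added, a minimum of 20 reads or of 1 read, adjustment within types, a difference of at least 0.05, Ψ without effective lengths, other events of a segment, and each library left out. A weighted limma fit and a dispersion trend on reads were chosen after seeing the data.

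The 10 genes and the list of other apoptosis genes were chosen with earlier results of these data known. A segment is represented by its event with most reads. The textbook isoform choices of each gene and up to 3 called segments per gene with the largest differences are described, and 6 further events were chosen after their values were seen. Some other events of described segments are quoted beside these, also with their values known. Exons are numbered in 1 GENCODE transcript per gene on GRCh37, which is the same build as hg19. Strand and coordinates are those of the tables.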

Additional observations from a re-analysis of the deposited data

Results flagged for a closer look

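Of the member events, 6 in BAX had a GSK591 effect that differed between 7 and 4 days by the interaction term. The adjusted p-values here are of that term, which is in log odds, and the differences in Ψ describe the levels. For exon 3, read after exon 2, the effect was higher at 7 days by 0.059 in Ψ (adjusted p = 0.000234), with -0.0702 at 4 days and -0.0112 at 7 days. Read after exon 1, exon 3 gave 0.0583 (adjusted p = 0.000867). For exon 2 the difference was 0.0778 (adjusted p = 0.0278), from -0.0752 to 0.0026. The 234-base stretch after exon 2 gave 0.0714 (adjusted p = 0.00299), the 286-base block of exons 2 and 3 with their intron gave 0.0674 (adjusted p = 0.00269), and the 98-base exon between exons 4 and 5 gave 0.0105 (adjusted p = 0.00177). These events share reads and are not separate observations. For the 98-base exon the DMSO level itself fell from 0.0145 at 4 days to 0.00517 at 7 days. Limma on the log2 odds called none of the 6, and the part of the DMSO shift in these differences was not tested.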

How the results depend on the processing

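Of 67 calls on described events, 30 were kept with every library left out, under the weighted limma fit, and under the dispersion trend, and 28 of these were in BAX. The other calls kept were the BCL2L1 long site with GSK591 and the 162-base DIABLO exon with MS023, both at 7 days. The weighted fit kept 41 of the 67 calls and the trend kept 48. Unweighted limma on the log2 odds kept 1 call. With GSK591 at 2 days, MS023 at 2 and 7 days, and between the DMSO groups it called 0 of all events, members included. Of the events it called elsewhere, members were 0 of 4 with MS023 at 4 days and 0 of 270 with GSK591 at 7 days. With co-treatment at 2 days members were 0 of 4371. At 4 days they were 1 of 2482 with GSK591 and 1 of 6356 with co-treatment. In GSK591 against MS023 they were 0 of 1319, 5 of 5274, and 0 of 3550 at 2, 4, and 7 days. For the GSK591 interaction it called 0 member events. Of the events called by weighted limma, members were 5 of 4090 with GSK591 at 2 days and 4 of 5971 at 7 days. With MS023 they were 1 of 1238 at 2 days and 1 of 1699 at 4 days. Under the trend, members were 1 of 2063 called events with MS023 at 2 days and 5 of 3482 at 7 days. With a difference of at least 0.05 in Ψ, the main test called 5, 9, and 5 member events with GSK591 at 2, 4, and 7 days. It then called 1 and 1 with MS023 at 2 and 7 days, and 4 with co-treatment at 4 days. All 3 calls with MS023 at 4 days had such a difference (-0.0716, 0.152, and -0.201). The count for co-treatment at 2 days is not listed here. The share of all events with such a difference was not counted, so these counts describe the members alone.

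With 1 library left out, counts ranged from 6 to 8, 10 to 11, and 3 to 6 with GSK591 at 2, 4, and 7 days, from 0 to 3, 0 to 3, and 3 to 5 with MS023, and from 6 to 10 and 7 to 10 with co-treatment at 2 and 4 days. The lowest counts came without DMSO b or GSK591 a at 2 days, DMSO b or c with GSK591 at 4 days, DMSO a or b with GSK591 at 7 days, DMSO a with co-treatment at 2 days, co-treated c at 4 days, DMSO b or MS023 a or c with MS023 at 2 days, MS023 b or c at 4 days, and DMSO a or c or MS023 a or c at 7 days. With a library left out, the share over all events was not counted. Direct comparisons were not refitted this way. Over other events of a segment the direction turned for BAX exon 2 (0.0394 with GSK591 at 2 days, 0.00361 and 0.0595 with co-treatment at 2 and 4 days), DIABLO exon 3 (-0.000989 at 4 days of co-treatment, -0.016 at 7 days of GSK591), CFLAR exon 2 (-0.00151 with MS023 at 7 days), BID exon 2 (-0.156 with co-treatment at 2 days), and BID exon 3 (-0.0498 with MS023 at 2 days). The cause was not tested. No paired analysis was possible because the columns carry no replicate numbers. Events of BCL2L11, FAS, and CASP9 had few reads, and small differences there were not detectable.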
